A study of Homo sapiens with 12 samples.

Results

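The genes described here are 59 direct targets of the transcription factor p53, taken by gene symbol from 25914 genes listed in both deposited comparisons. All 59 were listed in both. The rule uses names and no threshold on a measured value, but the list was drawn up with earlier results of these data known. Their RNA was compared between cells treated with Nutlin-3a and cells given the solvent DMSO, in 2 human lines. RPE-1 hTERT is a noncancerous retinal pigment epithelial line immortalized with telomerase, and HCT116 is a colon cancer line. Both are labelled wild-type. Each line had 3 libraries from cells treated with 10 µM Nutlin-3a for 24 h and 3 from cells in DMSO for 24 h, 12 in all, and the lines were grown in different media. The methods call the RPE-1 libraries biological replicates. Nothing comparable is stated for those of HCT116, so they may be technical replicates, and the HCT116 errors below may not cover the biological spread of that line. Each line is 1 cell line, and a difference between RPE-1 and HCT116 cannot be told apart from a difference between 2 culture media.

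Nutlin-3a binds MDM2, the ubiquitin ligase that marks p53 for degradation, and so lets p53 accumulate without damaging DNA. p53 binds DNA as a tetramer at response elements made of paired half-sites, each with a C and a G at fixed places in its core, and raises the transcription of genes that act in arrest, cell death, metabolism, DNA repair and its own restraint. Many of its targets are induced in most cell types that have been examined, whereas others respond in some of them.

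The values are the log2 fold changes (log2FC) of Nutlin-3a over DMSO within each line and their standard errors (SE), from DESeq2 as run by the authors. Their p-values are adjusted over all listed genes by the Benjamini-Hochberg method. A gene is called higher or lower where its adjusted p is under 0.05. Values of single libraries are not part of these comparisons, so the spread of the 3 libraries of a group cannot be seen, and reads per library are unknown. The base mean, a normalized count averaged over libraries, is the same in both comparisons and does not give the level in either line. Both comparisons therefore appear to come from a joint fit, in which DESeq2 estimates a common spread for each gene. An SE then reflects this shared spread and the counts of a line, not the spread of its 3 libraries alone. The base mean also averages libraries beyond the 12 described here, as given under processing, and the shared spread may draw on them too. As a check of the treatment, MDM2 rose by a log2FC of 3.95 ± 0.11 (SE) in RPE-1 and 4.14 ± 0.11 in HCT116, and CDKN1A, the p21 inhibitor of cell cycle kinases, by 3.94 ± 0.22 and 4.12 ± 0.22. The median of all listed genes lay at a log2FC of 0.06 in RPE-1 and 0.09 in HCT116.

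Sequence around the start sites was searched for p53 response elements. The rule did not use sequence, but it took established direct p53 targets, a status that can itself rest on such elements. A higher share than over all genes is therefore not independent of the choice. The search took 20 bases made of 2 half-sites of 10 bases with no spacer, with the C and the G of each core (CNNG) fixed and at most 3 mismatches to the p53 consensus elsewhere. The consensus is its own reverse complement, so 1 search covers both strands. RefSeq promoter windows of 300 bases (GRCh38, from 250 bases before the start site to 50 from it on) were matched for 52 of the 59 genes. The 7 without a matched window are ASCC3, CMBL, FBXO22, PHLDA3, TP53INP1, TRIM22 and ZNF385A. Of these 52, 8 (15.4%) had an element in a promoter window, beside 1.37% of the 27305 genes in the same table and 1.60% of the 13603 listed genes matched to it. They were ABHD4, AEN, CES2, DCP1B, GRHL3, RPS27L, SAC3D1 and TRIM32. Within 2500 bases on either side of a start site, a wider window chosen after the data were seen, 36 of 52 (69.2%) had an element, beside 22.6% of all genes in the table. At most 2 mismatches left 19 (36.5%, beside 4.58%), and at most 1 left 5 (9.62%, beside 0.725%). The members had more start sites in the table, 82 for 52 genes, against 35116 for all 27305.

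The elements that match best are printed first, 5′ to 3′ along the strand of each gene, with the 4-base core of each half-site in capitals. The first 2 have no mismatch to the consensus and the next 3 have 1.
ZMAT3: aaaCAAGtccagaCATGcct
PLK2: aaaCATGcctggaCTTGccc
PTP4A1: gaaCAAGtctagtCTTGtcc
SLC12A4: aggCATGtccagaCCTGccc
PADI4: cagCATGcccaggCTAGccc
In GRCh38 these lie at chr3:179070188-179070207 in intron 1 of ZMAT3 (minus strand), at chr5:58462274-58462293 outside PLK2 and 2198 bases before its start (minus strand), at chr6:63573713-63573732 in intron 1 of PTP4A1 (plus strand), at chr16:67966362-67966381 in intron 1 of SLC12A4 (minus strand) and at chr1:17309894-17309913 in intron 1 of PADI4 (plus strand). Distances to a start site are taken from the middle of an element, which for PADI4 lies 1706 bases after the start site.

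The next 3 are the closest matches inside a 300-base promoter window, each with 2 mismatches.
AEN: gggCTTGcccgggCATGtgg
DCP1B: gggCAGGcctgggCTTGtcg
GRHL3: gacCTGGttcaggCTTGccc
They lie at chr15:88621306-88621325 (plus strand, 25 bases before the AEN start), chr12:2004650-2004669 (minus strand, 203 bases before the DCP1B start) and chr1:24322923-24322942 (plus strand, in intron 1 of GRHL3 and 108 bases before a listed start).

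A further set belongs to genes whose response differed between the lines, as described below. Those of TP53I3 and of the APAF1 and IKBIP pair have 3 mismatches and the others 2.
CD82: gggCCAGtccaggCAAGctg
SULF2: gggCTTGtccgggCAGGact
PLTP: gcaCTTGtctagtCTTGctt
SPATA18: ggaCATGtgtgtaCATGccc
TP53I3: cagCTTGcccaccCATGctc
APAF1 and IKBIP, first: ggcCAGGcccaggCACGtcc
APAF1 and IKBIP, second: cagCAGGctcaggCACGttc
CD82 has its element at chr11:44564761-44564780, in the gene but outside its canonical transcript. Those of SULF2 (chr20:47784913-47784932, minus strand) and SPATA18 (chr4:52051957-52051976) are in intron 1, and that of PLTP (chr20:45912706-45912725, minus strand) is outside the gene, 561 bases before the start. TP53I3 has its element at chr2:24085165-24085184 on the minus strand, 341 bases before a listed start. The last 2, at chr12:98644525-98644544 and chr12:98644552-98644571, are written along the strand of APAF1. They lie upstream of APAF1 and in exon 1 of IKBIP, its neighbour on the opposite strand, whose 5′ end is 177 bases away in GENCODE 44. The same 20 letters recurred in different genes in 2 cases, in NTPCR, PLTP and SYTL1 (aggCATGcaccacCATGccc) and in TRIAP1 and VWCE (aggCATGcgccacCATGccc), so these matches are not independent of each other. Near copies of these letters were also matched in CDIP1 and at another place in SYTL1, so identical letters alone understate how many matches are alike. A match describes letters and does not show that p53 was bound.

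**Figure D1:**
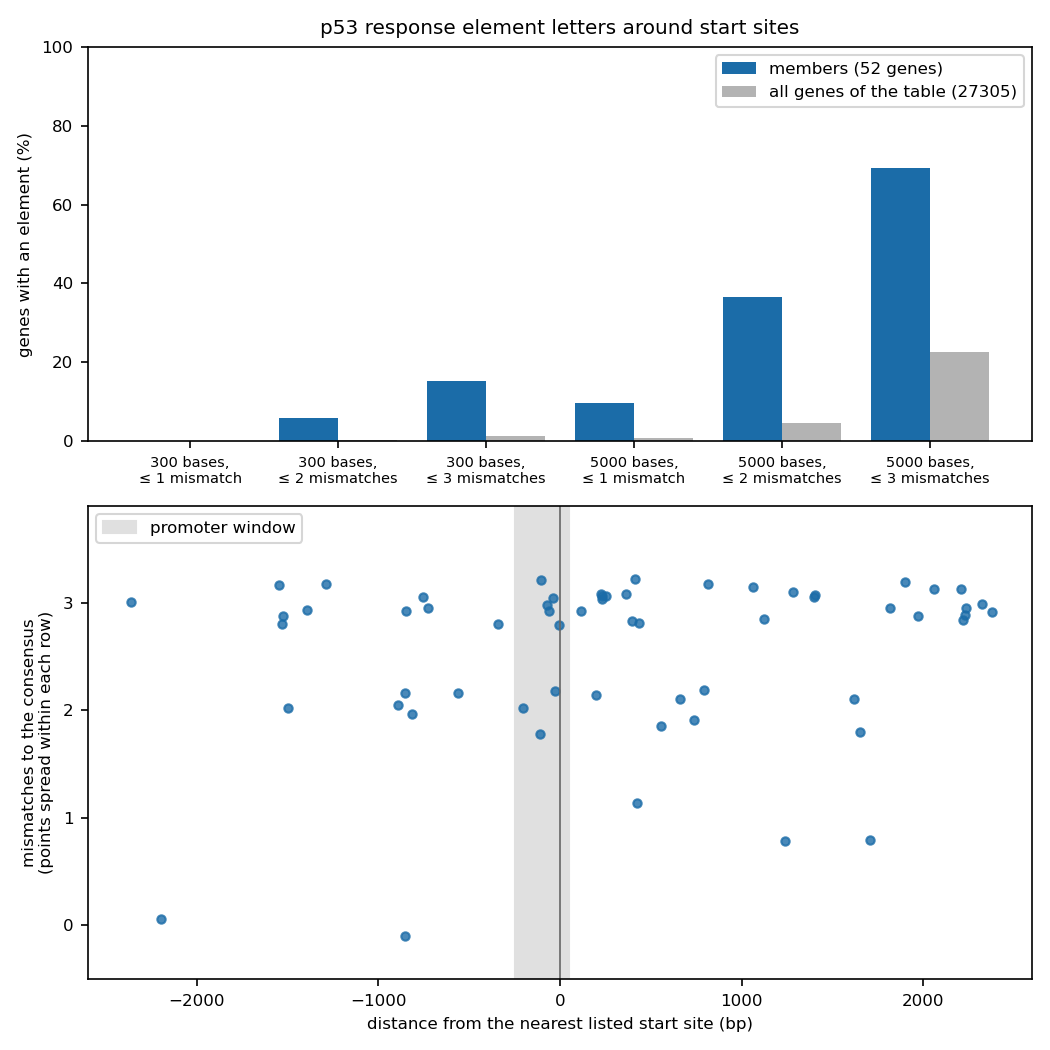
Upper panel: percentage of genes with p53 response element letters (vertical axis) in promoter windows of 300 bases and in windows of 5000 bases, at most 1, 2 or 3 mismatches, for 52 of the 59 p53 targets (blue bars) and all 27305 genes of the promoter table (grey bars). Lower panel: each element of a member by its distance from the nearest listed start site in bp and its mismatches; those with 0 or 1 mismatch lie outside the grey promoter window.

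The size of the response was set beside the match to the consensus. The 5 genes with at most 1 mismatch within 2500 bases had a median log2FC of 1.30 in RPE-1 and 1.88 in HCT116, and the 47 others with a window 1.21 and 1.36. Among the 8 with an element in the promoter window the medians were 1.25 and 1.32, from SAC3D1, the lowest in both lines, to GRHL3, the highest in both. The 16 genes with no element within 2500 bases still had medians of 1.43 and 1.19. These are descriptions of small groups with overlapping ranges and were not tested.

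Nearly all 59 genes were higher after Nutlin-3a in each line. In RPE-1, 54 were called higher (19.3% of all listed genes were), 2 were called lower (13.6% of all) and 3 were not called. In HCT116, 57 were called higher (14.9% of all), 1 was called lower (12.2% of all) and 1 was not called. Of the 59, 52 were higher in both lines (7.23% of all) and 3 changed in opposite directions (2.05% of all). Increases of at least 1 on the log2 scale were called for 43 genes in RPE-1 (5.07% of all) and 46 in HCT116 (4.48% of all). The median log2FC was 1.28 in RPE-1, a 2.44-fold level, and 1.46 in HCT116, a 2.75-fold level. BLOC1S2, a subunit of a complex that acts in lysosome-related organelles, was the median gene in RPE-1 (1.28 ± 0.13, adjusted p = 2.23e-20) with a log2FC of 1.36 ± 0.13 in HCT116 (adjusted p = 1.09e-22), and the zinc finger protein ZNF561 was that of HCT116 (1.46 ± 0.10, adjusted p = 5.08e-45) with 1.16 ± 0.10 in RPE-1 (adjusted p = 4.57e-28).

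A list of 36 other p53 targets, written from textbook knowledge with earlier results known, behaved much alike by count. In RPE-1, 32 of these were higher and 2 lower, in HCT116 35 were higher and 0 lower, and 31 were higher in both. Their median log2FC was 1.30 in RPE-1 and 1.40 in HCT116.

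**Figure D2:**
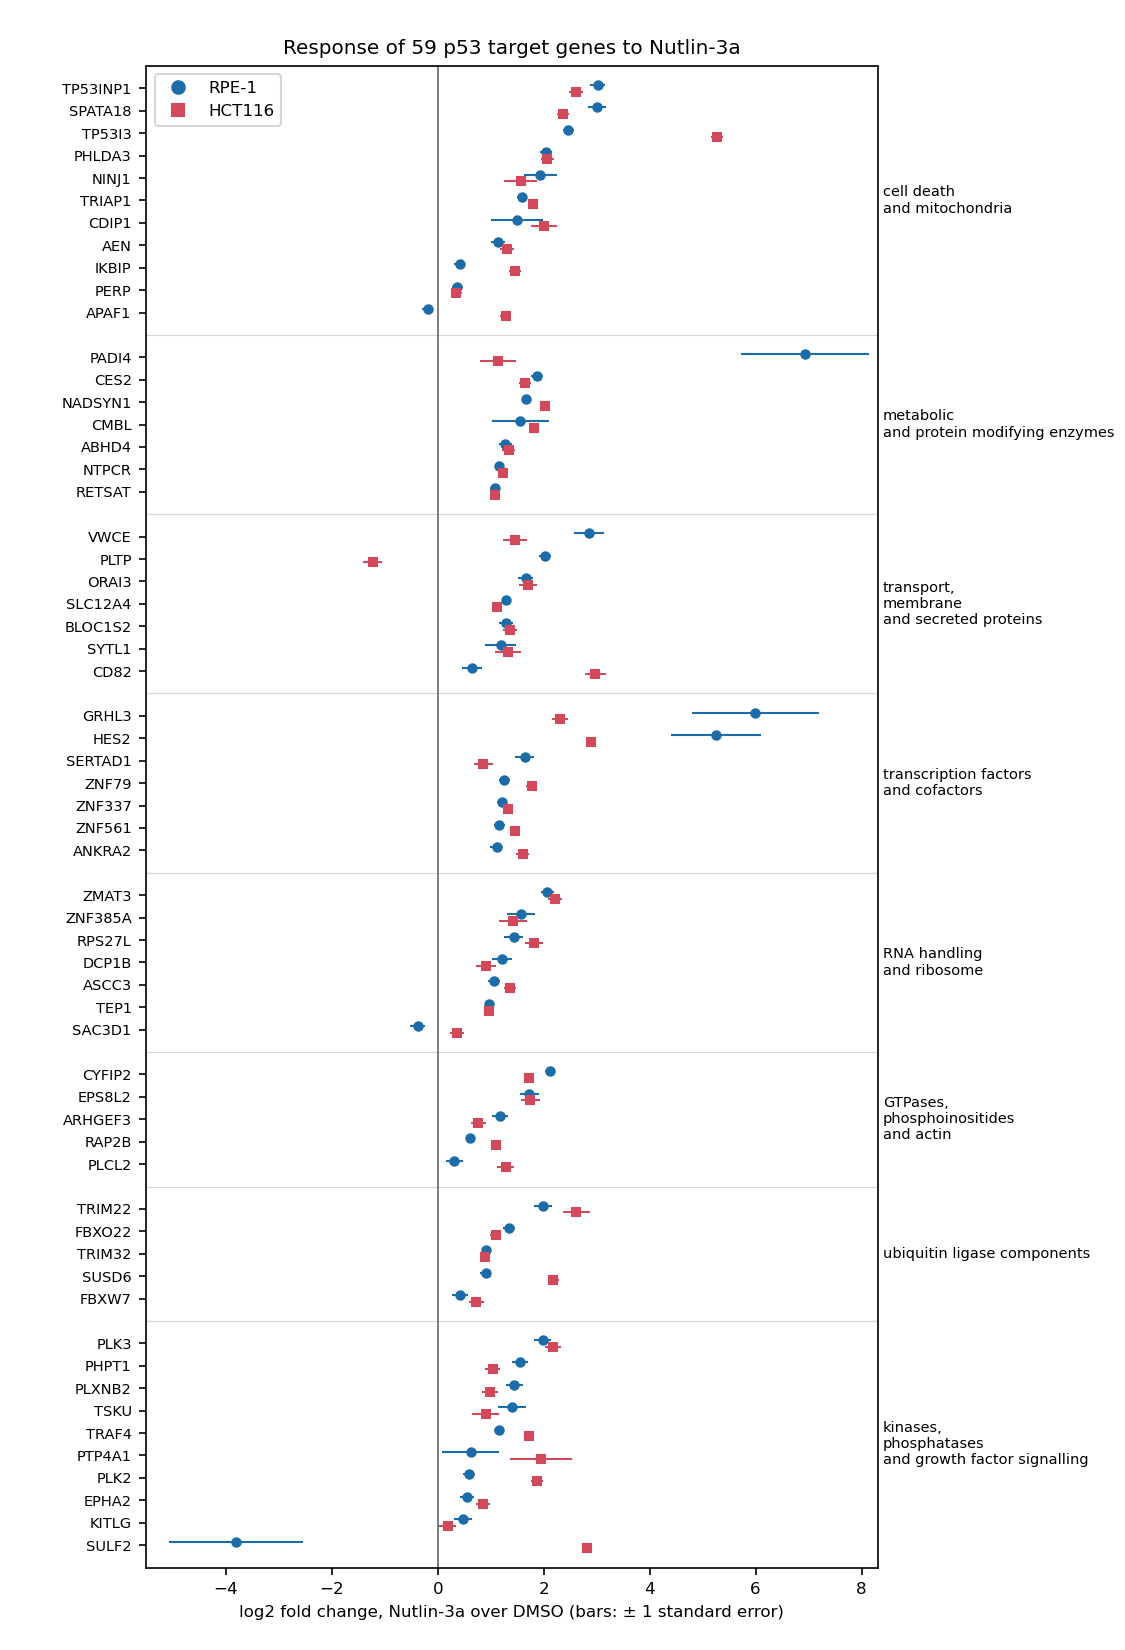
log2 fold change of Nutlin-3a over DMSO (horizontal axis, bars ± 1 SE) for the 59 p53 targets grouped by role, in RPE-1 (blue circles) and HCT116 (red squares). Most pairs of points lie close together between 0 and 3, and SULF2, PLTP, PADI4, GRHL3, HES2, TP53I3 and CD82 stand apart between the lines.

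Genes of cell death and mitochondria were the largest role group, and 10 of its 11 members rose in RPE-1 and 11 of 11 in HCT116. The highest in RPE-1 was TP53INP1, a stress-induced partner of p53 that also acts in autophagy. Its log2FC was 3.02 ± 0.14 (adjusted p = 3.05e-99), beside 2.61 ± 0.14 in HCT116 (adjusted p = 5.27e-75). SPATA18, or Mieap, which acts in mitochondrial quality control, followed at 3.01 ± 0.17 (adjusted p = 5.58e-70), with 2.36 ± 0.12 in HCT116 (adjusted p = 3.28e-86). The highest of all members in HCT116 was TP53I3, a quinone oxidoreductase linked to reactive oxygen species. It rose there by 5.27 ± 0.11, a 38.6-fold level with an adjusted p listed as 0, and in RPE-1 by 2.46 ± 0.11, or 5.52-fold (adjusted p = 8.53e-113). PHLDA3, which competes with the kinase AKT for membrane lipids, was nearly equal in the lines at 2.04 ± 0.12 and 2.07 ± 0.12. TRIAP1, a small protein of mitochondrial lipid transfer, rose by 1.60 ± 0.10 and 1.80 ± 0.10, and the nuclease AEN by 1.13 ± 0.13 and 1.30 ± 0.13. NINJ1, a mediator of plasma membrane rupture, rose by 1.93 ± 0.31 and 1.57 ± 0.31. The desmosomal protein PERP had the smallest increase of this group in HCT116, 0.35 ± 0.10, and one of 0.37 ± 0.10 in RPE-1.

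APAF1, the scaffold of the apoptosome that activates caspase 9, was the member of the death group that did not pass the test in RPE-1, where its log2FC was -0.19 ± 0.10 (adjusted p = 0.155). In HCT116 it rose by 1.28 ± 0.10, or 2.43-fold (adjusted p = 3.15e-33). IKBIP, a gene named for its binding to the kinase IKK-beta, begins beside it on the opposite strand and shares both elements printed above. IKBIP rose by 0.41 ± 0.10 in RPE-1 (adjusted p = 0.000325) and by 1.46 ± 0.12 in HCT116 (adjusted p = 1.13e-32). Both genes of this pair therefore had the higher response in HCT116, by 1.47 ± 0.15 for APAF1 and 1.05 ± 0.16 for IKBIP.

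Metabolic and protein modifying enzymes rose in both lines in 7 of 7 cases, and a difference between the lines was called for PADI4 and NADSYN1. The carboxylesterase CES2 rose by 1.87 ± 0.12 in RPE-1 and 1.64 ± 0.12 in HCT116, NADSYN1, which makes NAD, by 1.66 ± 0.08 and 2.03 ± 0.08, and the hydrolase CMBL by 1.56 ± 0.53 and 1.82 ± 0.09. RETSAT, which saturates retinol, rose least in both, by 1.09 ± 0.09 and 1.09 ± 0.09. The lipase ABHD4 and the nucleoside triphosphatase NTPCR lay between 1.16 and 1.34 in both lines. PADI4, which converts arginine to citrulline in proteins, had the highest log2FC of all members in RPE-1, 6.93 ± 1.21 (adjusted p = 1.01e-07), and rose by 1.14 ± 0.34 in HCT116 (adjusted p = 0.00479). Its base mean of 61.9 is among the lowest of the members, and its SE in RPE-1 is over 3 times that in HCT116.

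Transcription factors and cofactors rose in 7 of 7 cases in both lines. GRHL3, a grainyhead factor of epithelial barrier formation, rose by 5.99 ± 1.20 in RPE-1 (adjusted p = 5.13e-06) and 2.31 ± 0.15 in HCT116 (adjusted p = 1.96e-50). HES2, a basic helix-loop-helix repressor, rose by 5.25 ± 0.85 (adjusted p = 8.31e-09) and 2.89 ± 0.09 (adjusted p = 1.63e-233). Both were among the 3 highest members in RPE-1, with wide errors there. The lowest of the group was ANKRA2 in RPE-1 at 1.11 ± 0.12 and the cofactor SERTAD1 in HCT116 at 0.86 ± 0.18, and the zinc finger genes ZNF79, ZNF337 and ZNF561 lay between 1.16 and 1.77 in both lines.

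Genes of transport, membrane and secreted proteins rose in 7 of 7 cases in RPE-1 and 6 of 7 in HCT116. The exception was PLTP, a plasma protein that moves phospholipids between lipoproteins, which rose in RPE-1 by 2.02 ± 0.11, or 4.06-fold (adjusted p = 2.35e-71), and fell in HCT116, where its log2FC was -1.23 ± 0.18, a 2.35-fold lower level (adjusted p = 4.24e-11). CD82, a tetraspanin known as a suppressor of metastasis, had the second highest log2FC in HCT116, 2.97 ± 0.20 or 7.85-fold (adjusted p = 3.47e-50), and rose by 0.65 ± 0.19 or 1.57-fold in RPE-1 (adjusted p = 0.00237). VWCE, a gene named for von Willebrand factor C and EGF domains, rose by 2.86 ± 0.29 in RPE-1 (adjusted p = 1.85e-21) and 1.46 ± 0.23 in HCT116 (adjusted p = 3.04e-09). The calcium channel ORAI3, the potassium chloride cotransporter SLC12A4 and SYTL1, which binds Rab27 in secretion, had log2FC between 1.12 and 1.70 in both lines. In GENCODE 44, 52.9% of the exon bases of ORAI3 lie under another gene on the same strand that the comparisons do not list, so its count may hold reads of both.

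Kinases, phosphatases and growth factor signalling was the most mixed group, with 8 of 10 members higher and 1 lower in RPE-1, and 9 of 10 higher in HCT116. SULF2, which removes sulfate from extracellular heparan sulfate, fell in RPE-1, where its log2FC was -3.80 ± 1.26 (adjusted p = 0.0102). In HCT116 it rose by 2.82 ± 0.07, or 7.06-fold, with an adjusted p listed as 0. The base mean of SULF2, 22888, is the highest of the members, yet its SE in RPE-1 is the largest of all 59. The RPE-1 call of SULF2 was lost at an adjusted p under 0.01, against a log2FC of 0.5 and with SEs 1.5 times as large. With a spread shared by the lines, its SE of 1.26 in RPE-1 beside 0.07 in HCT116 goes with few counts in RPE-1. Its exact level there is unknown because the base mean pools both lines and further libraries. PLK2, a polo-like kinase with one of the elements that match at every base, rose by 0.59 ± 0.11 in RPE-1 (adjusted p = 5.04e-07) and 1.88 ± 0.11 in HCT116 (adjusted p = 7.63e-64). Its relative PLK3 rose by 1.98 ± 0.15 and 2.18 ± 0.15, and no difference was called for it. The receptor kinase EPHA2 rose by 0.56 ± 0.13 and 0.86 ± 0.13, and the semaphorin receptor PLXNB2 by 1.45 ± 0.15 and 0.98 ± 0.15. The histidine phosphatase PHPT1 rose by 1.55 ± 0.14 and 1.04 ± 0.14, and the signalling adaptor TRAF4 by 1.16 ± 0.10 and 1.72 ± 0.09. KITLG, the ligand of the receptor KIT, rose by 0.48 ± 0.17 in RPE-1 and was the only member not called in HCT116, at 0.19 ± 0.16 (adjusted p = 0.439). PTP4A1, a phosphatase known for its p53 element in intron 1, rose by 1.96 ± 0.58 in HCT116 (adjusted p = 0.00447) and was not called in RPE-1, at 0.63 ± 0.54 (adjusted p = 0.429). In GENCODE 44, 78.1% of its exon bases are shared with AL135905.2 on the same strand, its base mean is 30.3, and the values of PTP4A1 are therefore uncertain. AL135905.2 itself rose by 0.97 ± 0.32 in RPE-1 and 0.79 ± 0.32 in HCT116.

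RNA handling and ribosome genes rose in 6 of 7 cases in RPE-1 and 7 of 7 in HCT116. ZMAT3, an RNA-binding zinc finger protein that acts in splicing and RNA stability, rose most in both lines, by 2.07 ± 0.12 and 2.21 ± 0.12, and carries the other element that matches at every base. SAC3D1, a gene with a SAC3 domain linked to centrosomes, fell in RPE-1, where its log2FC was -0.38 ± 0.14 (adjusted p = 0.021), and rose by 0.36 ± 0.13 in HCT116 (adjusted p = 0.0312). Both calls of SAC3D1 were lost at an adjusted p under 0.01 and at a log2FC of at least 1. They were also lost against a log2FC of 0.5 and with SEs 1.5 times as large. With the median of all genes taken out, the HCT116 call of SAC3D1 was lost and the RPE-1 call was kept. RPS27L rose by 1.43 ± 0.18 and 1.82 ± 0.18, while RPS27, the ribosomal protein gene it nearly copies, rose by 0.61 ± 0.18 in RPE-1 and 0.48 ± 0.18 in HCT116. The base mean of RPS27 is 179.6, beside 5671.5 for RPS27L, so the RPS27 values rest on far fewer counted reads. Reads that match near copies could be lost where only uniquely mapped reads are kept, which was not tested. The decapping cofactor DCP1B rose by 1.21 ± 0.20 and 0.91 ± 0.19, and TEP1, a telomerase-associated protein, by 0.97 ± 0.08 and 0.98 ± 0.08. The helicase ASCC3 and the zinc finger protein ZNF385A lay between 1.06 and 1.57 in both lines.

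Ubiquitin ligase components rose in 5 of 5 cases in both lines. TRIM22, an interferon-inducible ligase, rose most in both, by 1.98 ± 0.17 in RPE-1 (adjusted p = 2.00e-29) and 2.61 ± 0.25 in HCT116 (adjusted p = 2.24e-23). FBXO22, an F-box protein, rose by 1.35 ± 0.10 and 1.09 ± 0.10. FBXW7, an F-box protein that recognizes cyclin E and MYC, rose least, by 0.42 ± 0.15 and 0.73 ± 0.15. SUSD6, a membrane protein that works with a NEDD4-family ligase, rose by 0.90 ± 0.10 in RPE-1 (adjusted p = 4.08e-19) and 2.18 ± 0.10 in HCT116 (adjusted p = 2.18e-102). Of the 5 genes of GTPases, phosphoinositides and actin, 4 rose in RPE-1 and 5 in HCT116. CYFIP2, a subunit of the actin-regulating WAVE complex, rose most in RPE-1, by 2.11 ± 0.09, and by 1.72 ± 0.09 in HCT116, where EPS8L2, an EPS8-like actin regulator, had the highest value, 1.75 ± 0.18. ARHGEF3, an exchange factor for the GTPase RhoA, rose by 1.18 ± 0.15 and 0.77 ± 0.14, and the GTPase RAP2B by 0.62 ± 0.08 and 1.10 ± 0.08. PLCL2, a phospholipase C relative without its activity, was not called in RPE-1, at 0.31 ± 0.15 (adjusted p = 0.107), and rose by 1.29 ± 0.16 in HCT116 (adjusted p = 5.61e-14).

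Whether a gene responded differently in the lines was tested on the difference of its log2FC values, RPE-1 minus HCT116, over its own SE, with p adjusted over 20764 genes with a base mean of at least 10. Of the 59 members, 22 differed (37.3%, with 21.7% of all genes tested), 8 with the higher log2FC in RPE-1 (11.3% of all) and 14 with the lower (10.4% of all). With HCT116 values scaled by the ratio of the interquartile ranges of both responses, 1.22, an alternative chosen after the data were seen, the split was 4 and 24, so the balance of directions depends on the scale. Scaled by the ratio of the SDs, 0.968, it was 9 and 13. Genes with a base mean of at least 1000 had a median SE of 0.12 in both lines, and the share that differed among them was higher. Of these, 11 of 45 members differed (24.4%, with 30.8% of all), which is below the background. Of the 36 other p53 targets, 7 had the higher and 8 the lower log2FC in RPE-1. At a base mean of at least 1000, 14 of 33 of these other targets differed (42.4%), which is above that background.

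**Figure D3:**
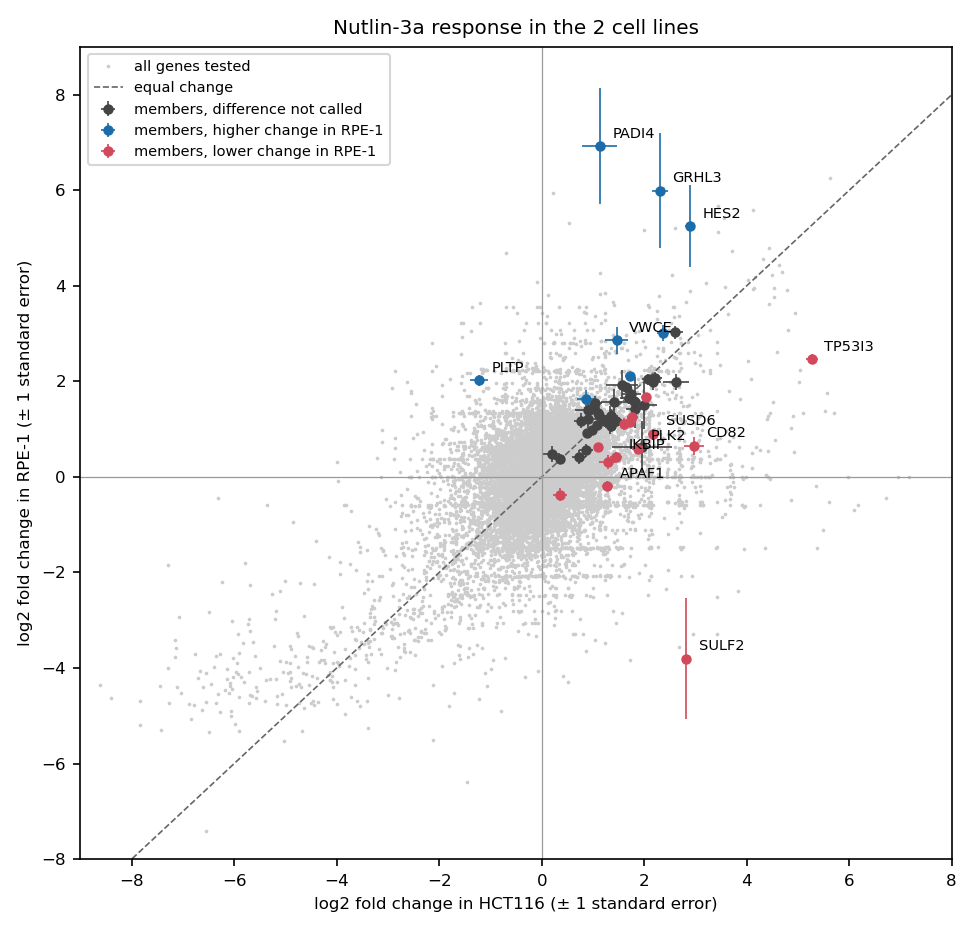
log2 fold change in RPE-1 (vertical axis) against HCT116 (horizontal axis), bars ± 1 SE, for the 59 p53 targets, coloured by the test of the difference, over all genes tested (grey points). The dashed line marks equal change; 52 members were called higher in both lines, and SULF2 and PLTP lie far from the line in opposite corners.

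Of the 22 genes that differed, 12 did so by at least 1 on the log2 scale. The log2FC of 7 was lower in RPE-1. SULF2 differed by -6.62 ± 1.27 (adjusted p = 3.66e-06), TP53I3 by -2.81 ± 0.16 (adjusted p = 9.08e-69), CD82 by -2.32 ± 0.27 (adjusted p = 1.54e-15) and APAF1 by -1.47 ± 0.15 (adjusted p = 1.74e-21). These genes thus had the higher log2FC in HCT116, and other genes, given below, went the other way. The difference of SULF2 was called under every alternative tried, but its 95% interval runs from -9.11 to -4.14. The limit on the pooled base mean does not show that it was well measured in RPE-1. Its SE of 1.26 there goes with few counts, and its RPE-1 call was lost under several alternatives. PLK2 (-1.29 ± 0.15, adjusted p = 9.94e-15), SUSD6 (-1.28 ± 0.14, adjusted p = 7.86e-18) and IKBIP (-1.05 ± 0.16, adjusted p = 1.36e-09) made up the rest.

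The responses of 5 were higher in RPE-1 by at least 1. PADI4 differed by 5.79 ± 1.26 (adjusted p = 6.07e-05), GRHL3 by 3.69 ± 1.21 (adjusted p = 0.0149), PLTP by 3.25 ± 0.21 (adjusted p = 7.65e-52), HES2 by 2.36 ± 0.86 (adjusted p = 0.0305) and VWCE by 1.40 ± 0.37 (adjusted p = 0.00155). The intervals of this group differ widely. PLTP is known within 2.84 to 3.66 (95% interval), whereas PADI4 spans 3.33 to 8.25 and GRHL3 1.31 to 6.06. CDIP1, CMBL, GRHL3, HES2, PADI4 and SULF2 had an SE at least 2 times larger in RPE-1 than in HCT116, and no member had one that much larger in HCT116. With a spread shared by the lines, such larger SEs go with few counts in RPE-1. The sizes of the GRHL3, HES2 and PADI4 differences are therefore imprecise, and the base mean does not give their level in RPE-1 cells without Nutlin-3a. The GRHL3 and HES2 differences were no longer called at an adjusted p under 0.01 or with SEs 1.5 times as large. That of HES2 was also not called with HCT116 scaled by the ratio of the interquartile ranges (1.72). The VWCE difference lost its call with SEs 1.5 times as large.

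The other 10 differences were smaller than 1. SPATA18, SERTAD1 and CYFIP2 had the higher log2FC in RPE-1, by 0.65, 0.78 and 0.39. All 3 lost the call at an adjusted p under 0.01, with SEs 1.5 times as large and under the interquartile scaling, where the differences were 0.12, 0.59 and 0.01. PLCL2, SAC3D1, TRAF4, ZNF79, ANKRA2, RAP2B and NADSYN1 had the lower one, by values between -0.97 (PLCL2) and -0.36 (NADSYN1). All of these, except PLCL2 and SAC3D1, were called higher in both lines, so they differed in the size of the increase. Each of the genes with the lower log2FC in RPE-1 also lost the call with SEs 1.5 times as large. ANKRA2 lost it at an adjusted p under 0.01 and under the scaling by the ratio of the SDs as well.

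For 37 members no difference was called. In 13 of them the 95% interval of the difference, without scaling, stayed within 0.5 of 0 on both sides. With HCT116 scaled by the ratio of the interquartile ranges, the members called lower in RPE-1 went from 14 to 24. Some of the 37 therefore gained a call on that scale, for which no intervals are given. The 13 were ABHD4, BLOC1S2, NTPCR, ORAI3, PERP, PHLDA3, RETSAT, SLC12A4, TEP1, TRIAP1, TRIM32, ZMAT3 and ZNF337. RETSAT, for example, had an interval from -0.25 to 0.26, and the ubiquitin ligase TRIM32 one from -0.20 to 0.25. For others the data leave room for a difference. The interval of PTP4A1 ran from -2.89 to 0.23 and that of CDIP1, which acts in apoptosis, from -1.59 to 0.57. That of the secreted protein TSKU ran from -0.22 to 1.22.

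**Figure D4:**
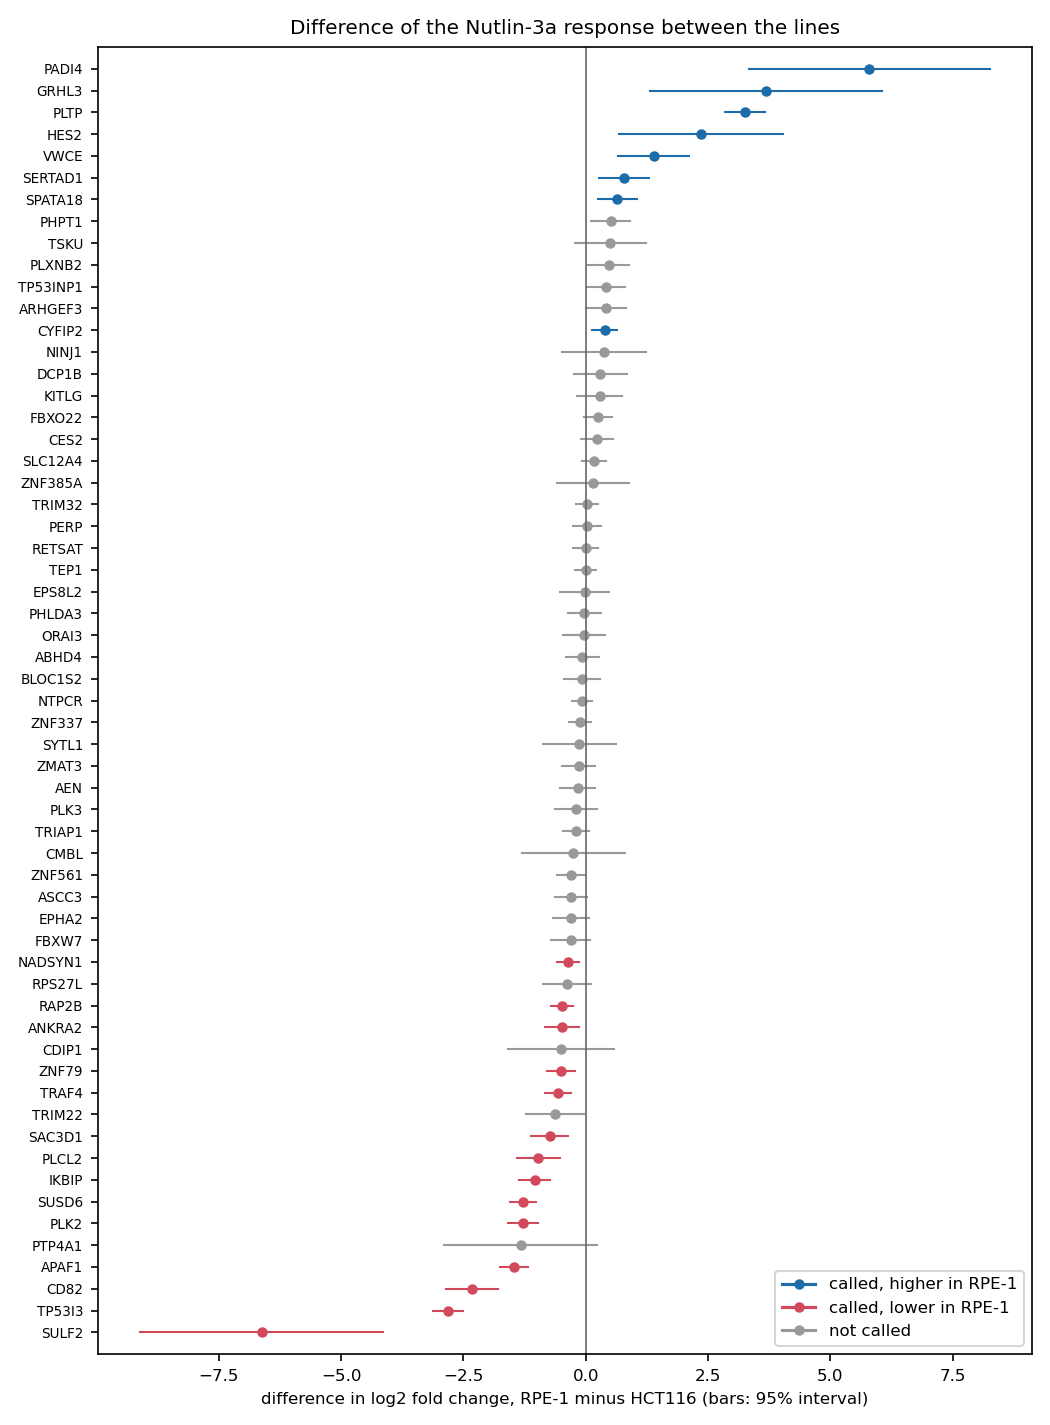
Difference in log2 fold change, RPE-1 minus HCT116 (horizontal axis, bars 95% interval), for each of the 59 p53 targets, coloured where called at an adjusted p under 0.05. The 8 blue genes had the higher log2FC in RPE-1 and the 14 red ones the lower, and the intervals of SULF2, PADI4, GRHL3 and HES2 are the widest of the called genes.

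Over the 59 genes the log2FC of the lines had a Pearson r of 0.19 and a Spearman rho of 0.42. The points share their annotation and gene length, and the genes are not independent replicates. In 36 genes the values lay within 0.5 of each other, and 23 had the higher value in RPE-1. Over the 46 members with an SE under 0.25 in both lines, r was 0.44 and rho 0.47. Without the 5 genes of the largest absolute difference, which were taken out after the values were seen, r over the other 54 was 0.59 and rho 0.53.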

How the data were processed

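RNA-seq libraries were made from total RNA after ribosomal RNA depletion, per the labels, but from poly(A)-selected RNA per the methods of the paper. The submitters' processing notes name bcl2fastq 2.20.0.422, Trimmomatic 0.39, FastQC 0.11.9, cutadapt 3.3, SAMtools 1.12, featureCounts 2.0.1, DESeq2 1.32.0 and hg38, and per the paper's methods the authors mapped with segemehl, kept uniquely mapped reads and counted exons by strand on Ensembl 102. With DESeq2, the authors contrasted the treatments separately in either line. The deposited log2 values are fold changes and their SEs, the deposited score is the quotient of both, and the deposited p-value and adjusted p-value are two-sided. The deposited signal is the base mean. As 172 genes with a log2FC of exactly 0 in both lines have base means of up to 234.0, it averages more libraries than these 12.

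The authors' comparison columns are the only values used, since values per library were not analysed here; depth is unknown and no model was refitted. Adjusted p-values were recomputed over all 25914 genes and equalled the deposited ones. The difference of the lines was divided by the root of the summed squared SEs, with a two-sided normal p. The test was tested on simulated data. Tables were read with pandas 2.3.3 in Python 3.11.15, statistics came from scipy 1.17.1 and numpy 2.4.6, and plots from matplotlib 3.10.9. Gene positions came from GENCODE 44, promoter windows from RefSeq.

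Full values were given for the 5 highest members of each line, for members called lower, for differences of at least 1 and for the median members, and other members by role. Members, lists, roles and tests were chosen with earlier results of these data known. Alternatives changed the limits on adjusted p, change and base mean, the standard errors, centring and scaling, and the mismatches and spacer of the element. The wide window and the scaling by interquartile ranges were chosen after seeing the data.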

Additional observations from a re-analysis of the deposited data

Results flagged for a closer look

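The 22 members whose response differed between the lines by the test of the difference itself are given by log2FC in RPE-1 minus HCT116. Those with the lower log2FC in RPE-1 were SULF2 (-6.62), TP53I3 (-2.81), CD82 (-2.32), APAF1 (-1.47), PLK2 (-1.29), SUSD6 (-1.28), IKBIP (-1.05), PLCL2 (-0.97), SAC3D1 (-0.74), TRAF4 (-0.56), ZNF79 (-0.51), ANKRA2 (-0.49), RAP2B (-0.48) and NADSYN1 (-0.36). Those with the higher response in RPE-1 were PADI4 (5.79), GRHL3 (3.69), PLTP (3.25), HES2 (2.36), VWCE (1.40), SERTAD1 (0.78), SPATA18 (0.65) and CYFIP2 (0.39). SULF2, PLTP and SAC3D1 were called in opposite directions in the lines, and of these only PLTP kept both calls under every alternative tried. The base means of PADI4 (61.9) and VWCE (103.9) are low, and the SE of SULF2, PADI4, GRHL3 and HES2 in RPE-1 lay between 0.85 and 1.26. With HCT116 scaled by the ratio of the interquartile ranges, HES2, SERTAD1, SPATA18 and CYFIP2 were no longer called, and at an adjusted p under 0.01 these 4, GRHL3 and ANKRA2 were not. The cause was not tested.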

How the results depend on the processing

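Of 46 counts and medians under the alternatives, 33 stayed within 1.5 times the reported count or left the median as it was. Of 881 values of single genes, 782 kept both sign and call, 99 lost their call with the direction kept, and 0 reversed. Only centring and scaling change a value itself, so the other alternatives could not have reversed a direction. Differences were followed only for members called in the main test, so calls gained by other members are not among these values. The 2 members called lower in RPE-1 became 0 at an adjusted p under 0.01, 1 (SULF2) with a log2FC of at least 1, 0 against a log2FC of 0.5 and 0 with SEs 1.5 times as large. Of the differences, the 8 higher in RPE-1 became 3 at an adjusted p under 0.01, 5 at a difference of at least 1, 2 with SEs 1.5 times as large and 4 with HCT116 scaled by the ratio of the interquartile ranges. The 14 lower in RPE-1 became 7 at a difference of at least 1, 7 with the larger SEs and 24 with that scaling. The 8 genes with an element in the promoter window became 3 at no more than 2 mismatches and 36 in the window of 2500 bases on either side. No paired analysis was possible because the comparisons hold no values per library, and for the same reason leaving out each library and the replicate block were not run. Depth is unknown, so members with a low base mean are limited by their SE.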
